A study of Homo sapiens with 15 samples.

Results

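The 66 genes described here are the heat shock proteins and the J proteins that serve them as co-chaperones, measured by RNA-seq in irradiated U251 cells. They were chosen by name from the 22447 genes of the count table. The names cover the HSP70 and HSP110 proteins (HSPA and HSPH1), the HSPB genes, mostly small heat shock proteins, and cytosolic HSP90 (HSP90AA1 and HSP90AB1). They also cover the mitochondrial pair HSPD1 and HSPE1, and the DNAJA, DNAJB and DNAJC proteins. HSPA5, DNAJB9, DNAJB11 and DNAJC3, which work in the endoplasmic reticulum, were left out by that rule and are given only as part of a comparison list. The filter on low counts left 56 of the 66 for testing, among 12719 genes in all.

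U251 is an established human glioblastoma cell line, grown here in culture and exposed to ionising radiation. The groups were cells given 1 Gy or 6 Gy, each harvested 6 h or 24 h later, and a control that was not irradiated. The control carries the label 0 h, but by the methods its harvest came 24 h after the irradiation of the other groups, so it matches the 24 h groups in time in culture and not the 6 h groups. The main analysis used 13 libraries, namely 2 controls, 2 and 3 after 1 Gy (6 h and 24 h) and 3 and 3 after 6 Gy (6 h and 24 h), and the 15 deposited libraries were analysed as an alternative.

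Heat shock proteins keep other proteins folded. HSP70 binds exposed stretches of unfolded proteins in a cycle driven by ATP, J proteins deliver the substrate and start ATP hydrolysis, and HSP110 proteins release the ADP so that the cycle can begin again. HSP90 takes over partly folded clients such as kinases and steroid receptors, HSPD1 and HSPE1 form the folding chamber of mitochondria, and the small heat shock proteins hold unfolded proteins without ATP. Many of these genes are switched on by heat shock factor 1 (HSF1), which binds heat shock elements, DNA made of inverted repeats of the letters GAA and TTC spaced by 2 bases.

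The sequences below show such elements in front of HSPA8 and HSPA1B, which were called lower, both cytosolic HSP90 genes, and DNAJB1, the main J partner of cytosolic HSP70. They were picked because they hold a match, and genes that changed without one are not shown. They are the 250 bases before the transcription start, from RefSeq on build GRCh38.p14, whereas the count table was made on hg19. HSPA8 is at chr11:123062137-123062386 on the minus strand, HSP90AA1 at chr14:102087045-102087294 on the minus strand and HSP90AB1 at chr6:44247693-44247942 on the plus strand, and capitals mark matches to 3 alternating units, that is GAANNTTC followed after 2 more bases by GAA, or TTCNNGAA followed after 2 more bases by TTC. HSPA1B is at chr6:31827488-31827737 on the plus strand and DNAJB1 at chr19:14518398-14518647 on the minus strand. In these last windows no 3-unit match was found, and capitals mark matches to 2 units, GAANNTTC or TTCNNGAA.
HSPA8: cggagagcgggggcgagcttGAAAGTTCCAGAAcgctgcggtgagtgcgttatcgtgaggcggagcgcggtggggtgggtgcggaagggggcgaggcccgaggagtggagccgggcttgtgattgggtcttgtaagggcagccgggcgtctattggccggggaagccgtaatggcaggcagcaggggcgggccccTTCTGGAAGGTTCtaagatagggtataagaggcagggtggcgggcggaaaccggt
HSP90AA1: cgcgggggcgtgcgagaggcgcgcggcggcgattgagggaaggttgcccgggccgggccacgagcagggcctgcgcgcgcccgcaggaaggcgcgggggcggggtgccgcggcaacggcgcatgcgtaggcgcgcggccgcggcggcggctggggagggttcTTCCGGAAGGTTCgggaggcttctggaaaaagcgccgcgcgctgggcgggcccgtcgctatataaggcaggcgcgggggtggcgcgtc
HSP90AB1: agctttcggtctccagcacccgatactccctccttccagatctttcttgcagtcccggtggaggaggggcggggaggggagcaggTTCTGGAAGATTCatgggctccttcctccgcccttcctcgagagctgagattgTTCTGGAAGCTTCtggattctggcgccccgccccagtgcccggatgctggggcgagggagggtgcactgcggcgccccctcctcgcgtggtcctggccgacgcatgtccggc
HSPA1B: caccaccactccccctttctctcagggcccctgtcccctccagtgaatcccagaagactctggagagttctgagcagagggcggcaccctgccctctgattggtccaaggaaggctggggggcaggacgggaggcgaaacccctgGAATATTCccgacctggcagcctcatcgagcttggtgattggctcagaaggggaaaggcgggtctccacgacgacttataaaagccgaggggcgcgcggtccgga
DNAJB1: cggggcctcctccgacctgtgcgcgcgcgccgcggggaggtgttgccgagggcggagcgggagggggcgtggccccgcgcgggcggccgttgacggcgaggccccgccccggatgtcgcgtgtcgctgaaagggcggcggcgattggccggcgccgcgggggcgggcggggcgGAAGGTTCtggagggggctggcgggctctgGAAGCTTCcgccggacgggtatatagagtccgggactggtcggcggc

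A window of 250 bases before to 50 bases after the start was available for 57 of the 66 genes. Each motif reads as itself or as another of its set on the other strand, so both strands were covered, and every 3-unit match also holds 2-unit matches. A 3-unit match was present for 7 of the 57 chaperone genes (12.3%), against 0.608% of all 27305 genes with a window and 0.49% of all 35116 windows. The 7 genes were HSPA8, HSP90AA1, HSP90AB1, HSPD1, HSPA6, DNAJA1 and DNAJB6. At least a 2-unit match was present for 22 of the 57 (38.6%), against 16.2% of all genes and 13.5% of all windows. A match is a description of the letters and does not show that a factor binds there.

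The deposited counts summed to between 8691338 and 11719631 per library. Libraries of a group had a Pearson r of 0.987 to 0.994 with each other over log2 CPM of the tested genes, which are not independent replicates, and the biological coefficient of variation of the fit was 6.26%. The 10 glial and glioblastoma markers summed to between 3759.6 and 4531 CPM, with VIM and CD44 the most abundant. Others of the 10 were low: GFAP had 2.87 to 4.60 CPM, S100B 0.986 to 3.39 CPM and FABP7 5.63 to 14.3 CPM. CHI3L1 reached at most 0.417 CPM, and OLIG2 was at 0. The 4 blood markers summed to between 0.521 and 1.55 CPM. CPM are counts scaled to a common library size with TMM factors, so that a value is a share of the messenger RNA in a library. A lower share can come from less RNA per cell, from more RNA of other genes or from fewer cells that carry it. Bulk libraries do not tell these apart. The 66 genes took 1.59% to 1.68% of all counts in the 3 deposited controls.

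In control cells the cytosolic HSP90 and HSP70 genes were the most abundant of the set. Per kilobase of the canonical transcript, HSP90AB1 had 1329 and 1408 CPM, HSPA8, the HSP70 made in unstressed cells, had 1246 and 1289 CPM, and HSP90AA1, the more heat-responsive HSP90, had 908 and 966 CPM in the 2 control libraries. These 3 ranges did not overlap. HSPB1 (534 and 566) and HSPD1 (511 and 527) followed, with a gap between them that was smaller than that between the 2 libraries of either gene, and then HSPA9 (206 and 219) and DNAJA1 (187 and 204). The stress-inducible HSP70 gene HSPA1B had 62.5 and 68.5 CPM per kilobase, whereas HSPA6, an HSP70 gene known to be almost silent without stress, had 0.498 and 0.164. Of the 50-base stretches of the HSPA6 transcript 56.1% occur elsewhere in the genome, and of those of HSPD1 41.3%.

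The 10 genes left untested for low counts were HSPA2, HSPA7, HSPB2, HSPB3, HSPB9, DNAJB3, DNAJB7, DNAJB8, DNAJB13 and DNAJC15. DNAJB3, DNAJB8 and HSPA7 had 0 counts in all 15 libraries. The others had between 5 (HSPB3) and 84 (DNAJC15) counts over the 15 libraries together, and no difference was detectable for them at this depth.

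At 24 h after 6 Gy, 14 chaperone genes were lower than in the control, led by the cytosolic HSP70 genes HSPA1B and HSPA8 and joined by HSP90, HSPH1, DNAJB1 and the mitochondrial HSPA9 and HSPD1. DNAJC30, HSPB1, DNAJC22 and DNAJC4 were higher. Genes were called at an adjusted p under 0.05 with an absolute log2 fold change over 0.5, and counts at an adjusted p under 0.05 without a minimum fold are given beside these. After 6 Gy at 24 h, 2 members were called lower and 1 higher, against 2.19% and 5.58% of all tested genes. With no minimum fold, 14 of the 56 (25%) were lower and 4 (7.14%) were higher, against 11.5% lower and 12.1% higher among all tested genes. Of the 56, 42 had a negative log2 fold change, with a median of −0.18, whereas the median over all tested genes was −0.00. Every library after 6 Gy lay below every control for 27 members (48.2%; 25.8% of all tested genes) and above for 7 (12.5%; 25.5% of all).

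The split moved with the scaling, since with library totals or upper quartile scaling in place of TMM, 12 were lower and 6 higher. The shares of all genes moved too, to 8.46% lower and 15.1% higher with library totals and 9.03% lower and 14.7% higher with upper quartile scaling. Without control II, 4 of the 18 genes still passed (HSPA1B, HSPA8, DNAJB1 and DNAJC30), and 4.98% of all genes were lower and 5.22% higher. Without control I or without 6 Gy 24 h I, 12 of the 18 passed, and with all 15 libraries 17 of the 18 passed, the exception being HSPB1. Some markers of other cell types were also higher after 6 Gy at 24 h. The 3 endothelial markers summed to 9.33 to 11.8 CPM, against 6.37 to 7.14 CPM in the controls (PECAM1 at 0), and the 4 neuron markers to 41.2 to 44.2 CPM, against 27.4 to 31.5 CPM. The 5 epithelial markers summed to 158 to 169.5 CPM, against 133 to 141 CPM in the controls, with EPCAM at 0. Of them, KRT18 overlapped the controls (76.0 to 83.5 CPM, against 74.3 and 84.0 CPM). After 1 Gy at 24 h the neuron sum (35.1 to 38.1 CPM) and the epithelial sum (151 to 166 CPM) were also above the controls. The endothelial sum (6.80 to 7.99 CPM) then overlapped them. Of these 12 marker genes 3 were called higher after 6 Gy at 24 h (CDH5, SYT1 and KRT8). Their part in the chaperone results was not tested.

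**Figure D1:**
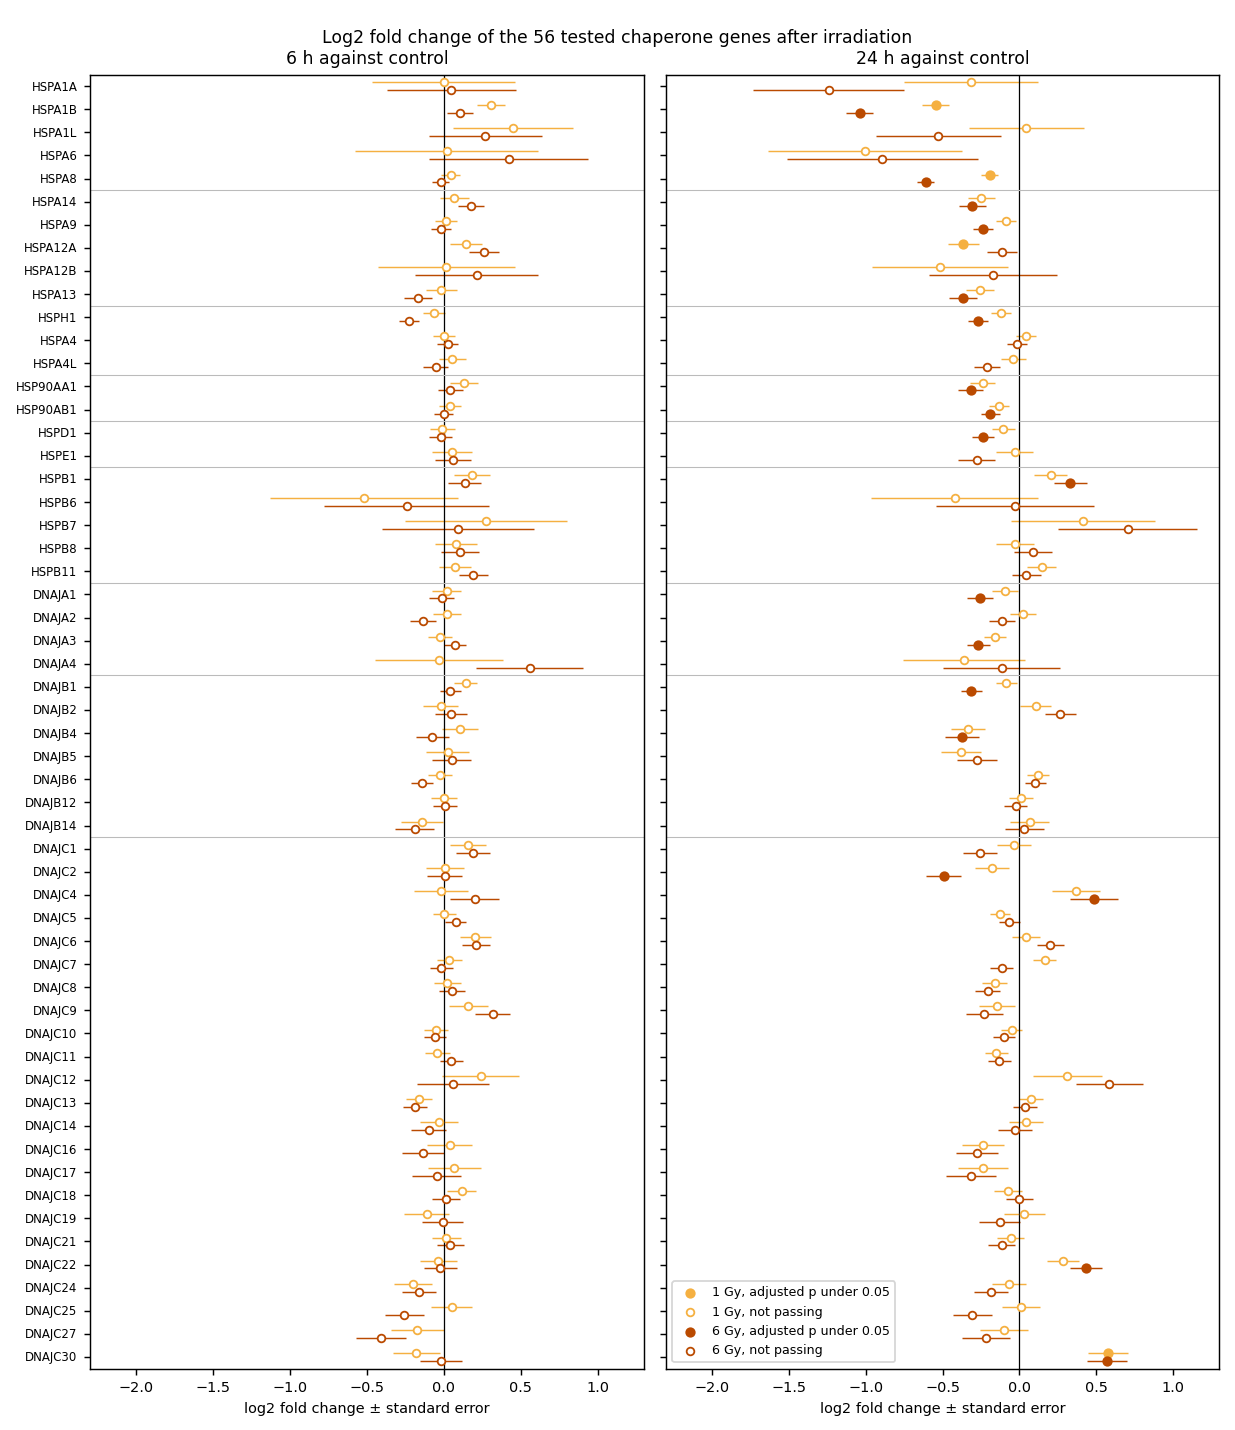
Log2 fold change (x axis, with its standard error) of the 56 tested genes (rows, separated into role groups) after 1 Gy (yellow) and 6 Gy (brown) against the control, at 6 h (left) and 24 h (right). Filled points have an adjusted p under 0.05: 0 points at 6 h, 4 yellow and 18 brown points at 24 h.

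HSPA1B, the main stress-inducible HSP70 gene of these libraries, fell after both doses. It lies in the major histocompatibility region beside HSPA1A and HSPA1L, at chr6:31795512-31798031 on hg19. At 24 h it had 157 and 172 CPM in the control libraries, 107, 108 and 124 CPM after 1 Gy and 83.8, 79.6 and 77.1 CPM after 6 Gy. The 3 groups did not overlap, and each library after 6 Gy lay below each library after 1 Gy. The log2 fold change was −0.54 ± 0.09 (adjusted p = 0.000215) after 1 Gy and −1.04 ± 0.09 (adjusted p = 6.18e-08) after 6 Gy, and the difference between 6 Gy and 1 Gy was −0.50 ± 0.08 (adjusted p = 0.00178) (edgeR's quasi-likelihood test, p-values adjusted by Benjamini-Hochberg). All 3 kept an adjusted p under 0.05 in each of the alternatives tried, the largest being 0.02.

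HSPA1A encodes the same protein as HSPA1B, and 71.6% of the 50-base stretches of the HSPA1B transcript also occur elsewhere, in HSPA1A, so how reads were split between them is uncertain. The table gives HSPA1A far fewer counts: 3.85, 1.69 and 0.513 CPM after 6 Gy at 24 h, against 7.14 and 2.61 CPM in the controls. These ranges overlapped, and the log2 fold change of −1.24 ± 0.49 (adjusted p = 0.0715) did not pass. Summed, HSPA1A and HSPA1B had 164 and 175 CPM in the controls, 110.5, 114 and 127 CPM after 1 Gy and 87.6, 81.3 and 77.6 CPM after 6 Gy at 24 h. In the sum, too, the groups did not overlap.

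HSPA8, which folds new proteins and strips clathrin from vesicles, was the most abundant gene that was called. It lies at chr11:122928200-122933043 on hg19. At 24 h it had 2821 and 2918 CPM in the control libraries, 2454, 2530.1 and 2541 CPM after 1 Gy and 1809.9, 1929.5 and 1902 CPM after 6 Gy. All 3 libraries after 6 Gy were below all 3 after 1 Gy, and these in turn below both controls. The group means were 2869 ± 69.0 CPM in the controls (SD, n = 2), 2508 ± 47.4 CPM after 1 Gy (SD, n = 3) and 1881 ± 62.7 CPM after 6 Gy (SD, n = 3). The log2 fold change was −0.19 ± 0.05 (adjusted p = 0.0218) after 1 Gy, −0.61 ± 0.05 (adjusted p = 1.2e-07) after 6 Gy and −0.42 ± 0.05 (adjusted p = 7.28e-05) between 6 Gy and 1 Gy. Of the 50-base stretches of its transcript 23.2% occur elsewhere in the genome. The change after 1 Gy no longer passed without control I, control II or 1 Gy 24 h I, with adjusted p up to 0.219.

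The other cytosolic HSP70 genes were near the limit of detection. HSPA6 had 0.101, 0.595 and 0.513 CPM after 6 Gy at 24 h, against 1.17 and 0.386 CPM in the controls, and the ranges overlapped. HSPA1L, whose gene is next to HSPA1A and is known for its expression in testis, had 1.32, 0.892 and 0.513 CPM after 6 Gy at 24 h, against 1.07 and 1.54 CPM in the controls. Neither passed, with log2 fold changes of −0.89 ± 0.62 (adjusted p = 0.324) and −0.53 ± 0.41 (adjusted p = 0.381). Of the 7 genes of this group 5 were tested, all 5 had negative values after 6 Gy at 24 h, and 2 passed.

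**Figure D2:**
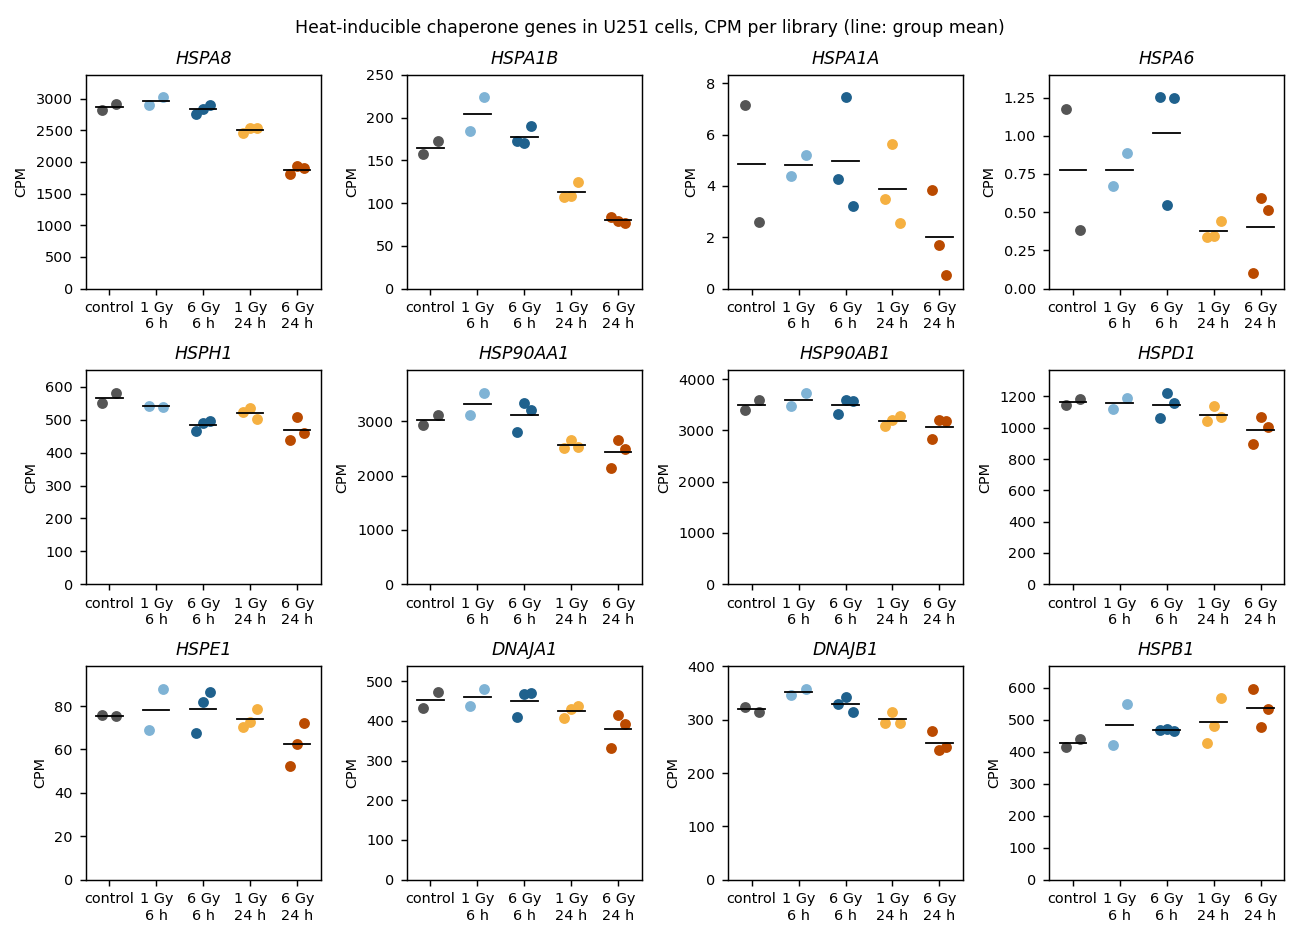
CPM per library (y axis, from 0) of 12 chaperone genes, listed as heat-inducible, in the control and the 4 irradiated groups (x axis). Points are libraries and lines are group means. HSPA8 lay between 1809.9 and 1929.5 CPM in the 3 libraries after 6 Gy at 24 h and between 2454 and 3019 CPM in the other libraries, and HSPA1B at 24 h lay between 77.1 and 83.8 CPM after 6 Gy and between 107 and 124 CPM after 1 Gy.

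Both cytosolic HSP90 genes were lower after 6 Gy at 24 h, with log2 fold changes closer to 0 than those of HSPA8 and HSPA1B. HSP90AA1 had 2145, 2646 and 2496 CPM after 6 Gy at 24 h, against 2931 and 3119.9 CPM in the controls. HSP90AB1 had 2823, 3210.2 and 3175 CPM after 6 Gy at 24 h, against 3396 and 3598 CPM in the controls. For both genes every library after 6 Gy was below both controls, and 6 Gy 24 h I was the lowest. The log2 fold changes were −0.32 ± 0.08 (adjusted p = 0.007) for HSP90AA1 and −0.19 ± 0.06 (adjusted p = 0.0362) for HSP90AB1. Without control II neither passed (adjusted p = 0.108 and 0.298). HSP90AB1 passed in 8 of 15 alternatives, and was lost with library totals, upper quartile scaling or only the groups compared, and without control I, 6 Gy 24 h I or 6 Gy 24 h III. Of their 50-base stretches 24.6% (HSP90AA1) and 22.5% (HSP90AB1) occur elsewhere in the genome.

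Of the 3 HSP110 exchange factors 1 fell. HSPH1 had 439, 508 and 459 CPM after 6 Gy at 24 h, against 550.4 and 581 CPM in the controls, with no overlap and a log2 fold change of −0.27 ± 0.07 (adjusted p = 0.00464). HSPA4 had 282, 315 and 307 CPM after 6 Gy at 24 h, against 301 and 308 CPM in the controls, and its value was −0.01 ± 0.07 (adjusted p = 0.906). HSPA4L did not pass either, at −0.21 ± 0.08 (adjusted p = 0.0657). HSPH1 no longer passed without control II (adjusted p = 0.0925).

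In mitochondria, the HSP70 of the matrix, HSPA9, fell with its J protein DNAJA3 and with HSPD1. HSPA9 had 738, 827 and 817 CPM after 6 Gy at 24 h, against 908 and 965 CPM in the controls, and DNAJA3 had 125, 126 and 117 CPM after 6 Gy at 24 h, against 149.9 and 145 CPM in the controls. The groups did not overlap for either, and the log2 fold changes were −0.24 ± 0.06 (adjusted p = 0.00899) and −0.27 ± 0.07 (adjusted p = 0.011). HSPD1 had 893, 1069 and 1003 CPM after 6 Gy at 24 h, against 1147 and 1184 CPM in the controls, a log2 fold change of −0.24 ± 0.07 (adjusted p = 0.0214). Its partner HSPE1 shares a promoter region with it and overlaps it by 278 bases on the opposite strand. HSPE1 had 52.5, 62.5 and 72.2 CPM after 6 Gy at 24 h, against 75.8 and 75.4 CPM in the controls. It did not pass, at −0.28 ± 0.12 (adjusted p = 0.0973). Of the 50-base stretches of these transcripts 41.3% (HSPD1) and 37.2% (HSPE1) occur elsewhere in the genome. Without control II none of HSPA9, DNAJA3 and HSPD1 passed (adjusted p = 0.149, 0.0598 and 0.17). DNAJA3 was also lost without control I or 6 Gy 24 h III, and HSPD1 without control I or 6 Gy 24 h I.

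HSPA14 and DNAJC2 are the HSP70 and the J protein of the complex that sits on ribosomes and meets new chains, and both fell after 6 Gy at 24 h. HSPA14 had 39.3, 40.6 and 43.8 CPM after 6 Gy at 24 h, against 49.0 and 52.9 CPM in the controls. DNAJC2 had 69.3, 90.3 and 87.2 CPM after 6 Gy at 24 h, against 108 and 123 CPM in the controls. In both genes all 3 irradiated libraries were below both controls, and 6 Gy 24 h I had the lowest value. The log2 fold changes were −0.31 ± 0.09 (adjusted p = 0.0143) and −0.49 ± 0.11 (adjusted p = 0.00348). DNAJC2 overlaps PMPCB by 2213 bases on the other strand, and the sources used here do not give whether strand was used in counting. Without control II neither passed (adjusted p = 0.181 for HSPA14 and 0.0876 for DNAJC2).

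The remaining HSP70 genes were HSPA13, of the microsomes, and the atypical HSPA12A and HSPA12B. HSPA13 had 66.6, 85.4 and 85.4 CPM after 6 Gy at 24 h, against 96.9 and 107 CPM in the controls, and fell by 0.37 on the log2 scale (SE 0.09, adjusted p = 0.00545), which did not pass without control II (adjusted p = 0.112). HSPA12A passed after 1 Gy and not after 6 Gy: at 24 h it had 26.7 and 29.5 CPM in the control libraries, 23.9, 21.4 and 20.0 CPM after 1 Gy and 26.6, 24.99 and 26.6 CPM after 6 Gy. The log2 fold change was −0.37 ± 0.10 (adjusted p = 0.0185) after 1 Gy and −0.11 ± 0.10 (adjusted p = 0.438) after 6 Gy, and the difference between 6 Gy and 1 Gy of 0.25 ± 0.09 (adjusted p = 0.127) did not pass. The change after 1 Gy was lost without control II, 1 Gy 24 h II or 1 Gy 24 h III. HSPA12B, at between 0.666 and 1.93 CPM, did not pass in either.

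Among the J proteins that work with cytosolic HSP70, DNAJB1, the classical HSP40, fell after 6 Gy in each alternative. At 24 h it had 324 and 315 CPM in the control libraries, 295, 315 and 294 CPM after 1 Gy and 279, 243 and 249.6 CPM after 6 Gy. The libraries after 6 Gy lay below the others, while 1 Gy 24 h II lay level with control II. The log2 fold change after 6 Gy was −0.31 ± 0.07 (adjusted p = 0.00208), and after 1 Gy −0.08 ± 0.07 (adjusted p = 0.469). Between 6 Gy and 1 Gy it was −0.23 ± 0.06 (adjusted p = 0.0416), and this passed in 7 of 16 alternatives. It did not pass with all 15 libraries (adjusted p = 0.0991), nor without any 1 of the 3 libraries after 1 Gy at 24 h, 6 Gy 24 h II or 6 Gy 24 h III (adjusted p up to 0.215).

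DNAJA1, which has a 3-unit match just after its start, had 332, 414 and 391 CPM after 6 Gy at 24 h, against 433 and 473 CPM in the controls. DNAJB4 had 30.4, 40.7 and 34.2 CPM after 6 Gy at 24 h, against 44.7 and 46.3 CPM in the controls. Their log2 fold changes were −0.26 ± 0.08 (adjusted p = 0.0286) and −0.37 ± 0.11 (adjusted p = 0.0179). Neither passed without control II or without 6 Gy 24 h I, DNAJB4 also not without control I or 6 Gy 24 h III, and DNAJA1 not with library totals or upper quartile scaling. DNAJA2 and DNAJA4, the other DNAJA genes, had log2 fold changes of −0.11 and −0.12 and did not pass. In the DNAJB group of 11 genes, 7 were tested, 2 fell, and the rest lay between −0.28 (DNAJB5) and 0.27 (DNAJB2).

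Of the 4 genes that rose after 6 Gy at 24 h, 3 were DNAJC genes. DNAJC30, a J protein of mitochondria, rose after both doses: at 24 h it had 12.3 and 12.1 CPM in the control libraries, 19.7, 17.3 and 17.2 CPM after 1 Gy and 20.3, 17.4 and 16.4 CPM after 6 Gy. All 6 irradiated libraries were above both controls, and the log2 fold changes were 0.58 ± 0.13 (adjusted p = 0.00501) after 1 Gy and 0.57 ± 0.13 (adjusted p = 0.00321) after 6 Gy. Without control II the change after 1 Gy did not pass (adjusted p = 0.0683), whereas that after 6 Gy passed in each alternative. Between 6 Gy and 1 Gy the difference was −0.01 ± 0.11 (adjusted p = 0.97), with a 95% interval of −0.24 to 0.22.

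DNAJC22, whose fly homologue takes part in clathrin-dependent uptake, had 37.8, 38.1 and 44.1 CPM after 6 Gy at 24 h, against 32.4 and 27.0 CPM in the controls. DNAJC4 had 19.3, 13.8 and 14.6 CPM after 6 Gy at 24 h, against 10.4 and 12.2 CPM in the controls. The log2 fold changes were 0.43 ± 0.10 (adjusted p = 0.00485) and 0.49 ± 0.15 (adjusted p = 0.0262), with no overlap between groups in either gene. Without control II neither passed, and DNAJC4 did not without control I or 6 Gy 24 h I (adjusted p up to 0.21). DNAJC12, a co-chaperone of the aromatic amino acid hydroxylases, had 5.68, 6.05 and 9.03 CPM after 6 Gy at 24 h, against 4.26 and 4.92 CPM in the controls and did not pass, at 0.58 ± 0.22 (adjusted p = 0.0576).

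HSPB1 (HSP27), the abundant small heat shock protein that also binds actin, rose after 6 Gy at 24 h. It had 598, 479 and 533 CPM after 6 Gy at 24 h, against 415 and 439.5 CPM in the controls, and both controls lay below the 3 irradiated libraries. This was a log2 fold change of 0.33 ± 0.11 (adjusted p = 0.029). Control III, which was not in the main analysis, had 534 CPM with all 15 libraries scaled together, against 412 and 437 CPM in the other controls, and with it the change was 0.21 (adjusted p = 0.195). HSPB1 also did not pass without 6 Gy 24 h I or 6 Gy 24 h III. Nor did it pass without control I or without control II, where only the other control of the main analysis remained. Over the alternatives its log2 fold change ran from 0.21 to 0.41. Among the other genes named HSPB that were tested, HSPB6, HSPB7, HSPB8 and HSPB11, none passed, and their values lay between −0.03 and 0.70.

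Of the 24 DNAJC genes, 23 were tested after 6 Gy at 24 h, 3 rose (DNAJC30, DNAJC22 and DNAJC4) and 1 fell (DNAJC2). The median of the 23 was −0.12. DNAJC7, which bridges HSP70 and HSP90, passed against the control after neither dose at 24 h, but differed between the doses. The controls had 153 and 157 CPM. At 24 h DNAJC7 had 133, 149 and 147 CPM after 6 Gy, below both controls, and 171, 179 and 173 CPM after 1 Gy, above both. The doses did not overlap. The log2 difference was −0.28 ± 0.07 (adjusted p = 0.0222), lost without 1 Gy 24 h II, 6 Gy 24 h I or 6 Gy 24 h III (adjusted p up to 0.12). DNAJC7 overlaps CNP by 1316 bases on the other strand.

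After 1 Gy at 24 h, 1 member was called lower and 1 higher, against 1.23% and 3.18% of all tested genes. With no minimum fold 3 were lower (HSPA1B, HSPA12A and HSPA8) and 1 higher (DNAJC30), against 5.39% and 6.71% of all genes. Without control II, HSPA1B alone passed of these 4, and 1.96% of all genes were lower and 2.82% higher. With all 15 libraries 7 were lower and 2 higher, beside 5.95% and 7.2% of all genes, and among the genes added were DNAJB4 (−0.33, adjusted p = 0.0326) and HSP90AA1 (−0.29, adjusted p = 0.0204). The median over the 56 genes was −0.08. The comparisons of both doses share their control libraries. Tested directly, 6 Gy against 1 Gy at 24 h gave 0 members past the fold limit, beside 0.173% of all genes lower and 0.267% higher, and 4 lower with no minimum fold (HSPA8, HSPA1B, DNAJC7 and DNAJB1), beside 2.06% of all genes, and 0 higher, beside 1.6% of all genes. DESeq2 also called 0, and at an unadjusted p under 0.05 there were 12 lower and 1 higher.

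The share of all counts taken by the 66 genes at 24 h was 1.59% and 1.65% in the controls of the main analysis, 1.46%, 1.52% and 1.48% after 1 Gy, and 1.31%, 1.45% and 1.41% after 6 Gy. The lowest was 6 Gy 24 h I. Set against HSPA8, HSPA1B had 5.57 and 5.91 counts per 100 counts of HSPA8 in the controls, 4.36, 4.27 and 4.90 after 1 Gy and 4.63, 4.13 and 4.05 after 6 Gy. After either dose all 3 libraries were below the controls, and the doses overlapped. This ratio was not tested.

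At 6 h no chaperone gene passed the test after either dose. In edgeR's test, 0 of the 56 members were called after 1 Gy, when 0% of all genes were called, and 0 after 6 Gy, when 0.818% of all genes were called lower and 0.252% higher. DESeq2 called 0 members in both comparisons. At an unadjusted p under 0.05 there were 2 higher and 0 lower after 1 Gy, and 3 higher and 3 lower after 6 Gy. With no minimum fold the count was also 0 after both doses, beside 2.04% of all genes lower and 0.841% higher after 6 Gy, and 1 was lower after 6 Gy with DESeq2, without the filter on low counts or with only the groups compared. The median log2 fold change was 0.02 after 1 Gy and 0.02 after 6 Gy.

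The lowest p at 6 h after 1 Gy was that of HSPA1B. It had 185 and 223 CPM after 1 Gy at 6 h, against 157 and 172 CPM in the controls, so both irradiated libraries were above both controls. The log2 fold change was 0.31 ± 0.09, with an adjusted p of 0.998. After 6 Gy at 6 h HSPA1B had 172, 169.8 and 189.5 CPM, a value of 0.10 ± 0.09 (adjusted p = 0.605). After 6 Gy, HSPH1 came nearest to the threshold at 6 h, with 465, 490.0 and 495 CPM after 6 Gy, against 550.4 and 581 CPM in the controls, without overlap. Its log2 fold change was −0.23 ± 0.07 (adjusted p = 0.0662). HSPA8 was at 2757, 2839 and 2894 CPM after 6 Gy at 6 h, a range that overlapped that of the controls. Between 6 Gy and 1 Gy at 6 h 0 members were called, beside 0.566% of all genes lower and 0.0157% higher, and with no minimum fold 0 passed, beside 0.959% lower and 0.0943% higher. DESeq2 called 0, and 3 were lower and 0 higher at an unadjusted p under 0.05.

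The comparison of 24 h with 6 h after the same dose does not use the controls, and gave more calls than the comparisons with the control did. No unirradiated cells were harvested at 6 h, so these changes cannot be told apart from changes with time in culture. After 6 Gy there were 3 libraries at each time, against 2 controls in the comparisons with the control. After 6 Gy, 4 members were called lower (HSPA1B, HSPA8, DNAJC9 and HSPA1A) and 2 higher (DNAJC30 and DNAJC12), against 3.06% and 7.57% of all tested genes. With no minimum fold 20 were lower and 5 higher, 35.7% and 8.93% of the 56, against 16.6% and 17.9% of all genes. HSPA1B had 83.8, 79.6 and 77.1 CPM at 24 h, against 172, 169.8 and 189.5 CPM at 6 h, a log2 fold change of −1.14 ± 0.08 (adjusted p = 1.03e-09). HSPA8 had 1809.9, 1929.5 and 1902 CPM at 24 h, against 2757, 2839 and 2894 CPM at 6 h, a log2 fold change of −0.59 ± 0.05 (adjusted p = 1.42e-08). In both genes the times did not overlap.

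DNAJC9, a chaperone of histones H3 and H4 as well as a J protein, had 20.3, 25.2 and 27.7 CPM at 24 h, against 33.2, 36.3 and 37.2 CPM at 6 h after 6 Gy, a log2 fold change of −0.54 ± 0.11 (adjusted p = 0.00043). Against the control it passed at neither time, with 0.32 ± 0.12 (adjusted p = 0.178) at 6 h and −0.23 ± 0.12 (adjusted p = 0.182) at 24 h. DNAJC9 overlaps FAM149B1 by 226 bases on the other strand. HSPA1A and DNAJC12 rest on few counts, and each overlapped between times. Their log2 fold changes were −1.29 ± 0.45 (adjusted p = 0.0297) and 0.52 ± 0.19 (adjusted p = 0.0418). HSPA1A lost its call with DESeq2, with all 15 libraries and without 6 Gy 6 h II, 6 Gy 24 h II or 6 Gy 24 h III, and DNAJC12 with DESeq2, with only the groups compared and without 6 Gy 6 h I, 6 Gy 6 h III or 6 Gy 24 h III.

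Of the 25 genes that passed between the times after 6 Gy, 14 passed in each alternative. Among these were HSPA14 (−0.48 ± 0.08, adjusted p = 6.58e-05), DNAJA3 (−0.34 ± 0.07, adjusted p = 0.000435), DNAJC2 (−0.50 ± 0.10, adjusted p = 0.00082) and DNAJC1, a J protein of the endoplasmic reticulum membrane (−0.44 ± 0.10, adjusted p = 0.00153). DNAJB6, which keeps polyglutamine proteins from aggregating, was higher at 24 h: it had 125, 129.6 and 141 CPM at 24 h, against 111, 110.2 and 112 CPM at 6 h, a log2 fold change of 0.25 ± 0.06 (adjusted p = 0.00431). DNAJC30 and DNAJC22 were higher by 0.59 ± 0.12 (adjusted p = 0.00053) and 0.46 ± 0.09 (adjusted p = 0.000718). HSPD1, HSPE1, DNAJA1 and DNAJB4 passed as lower although the libraries overlapped. None of these 4 passed without 6 Gy 24 h I (adjusted p from 0.0793 to 0.13) or without 6 Gy 6 h II (adjusted p from 0.064 to 0.0879).

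After 1 Gy the same comparison called 2 members lower and 1 higher, against 1.58% and 3.9% of all genes, and with no minimum fold 8 lower and 3 higher, against 7.29% and 8.59%. HSPA1B had 107, 108 and 124 CPM at 24 h, against 185 and 223 CPM at 6 h, a log2 fold change of −0.85 ± 0.09 (adjusted p = 5.7e-07). HSPA12A had 23.9, 21.4 and 20.0 CPM at 24 h, against 31.7 and 30.5 CPM at 6 h, a value of −0.51 ± 0.10 (adjusted p = 0.00109). DNAJC30 had 19.7, 17.3 and 17.2 CPM at 24 h, against 10.8 and 10.6 CPM at 6 h, a value of 0.76 ± 0.13 (adjusted p = 0.000461). All 3 passed in each alternative. The others that passed were HSP90AA1, HSPA8, DNAJB4, HSPA14, DNAJB1 and DNAJB5 as lower, and DNAJC13, of the endosomes, and DNAJC22 as higher. Without 1 Gy 6 h III 4 of the 11 passed (these 3 and HSPA14), and without 1 Gy 6 h I 6 did.

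Whether the change between 6 h and 24 h differed between the doses was tested as an interaction. No member was called with the fold limit, beside 0.0236% of all genes lower and 0.267% higher, DESeq2 called 0, and 3 members were lower and 0 higher at an unadjusted p under 0.05. With no minimum fold HSPA8 alone was lower, beside 0.0629% of all genes. From 6 h to 24 h HSPA8 changed by −0.59 on the log2 scale after 6 Gy and by −0.24 after 1 Gy, a difference of −0.35 ± 0.07 (adjusted p = 0.0306). This passed in 11 of 21 alternatives. It did not pass with all 15 libraries or with only the groups compared, nor, taken singly, without 1 Gy 6 h I or III, 1 Gy 24 h II or III, 6 Gy 6 h II or III, or 6 Gy 24 h I or III, with adjusted p up to 0.202. For HSPA1B the difference was −0.29 ± 0.12 (adjusted p = 0.346).

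The partners of the chaperones were described by lists of related genes. After 6 Gy at 24 h, of the 4 heat shock factor genes (HSF1, HSF2, HSF4 and the inhibitor HSBP1) each had an adjusted p of 0.636 or more, with log2 fold changes from −0.08 to 0.04 and HSF1 at 0.04 ± 0.09 (adjusted p = 0.771). Of 9 other genes known as HSF1 targets, 4 fell and 1 rose, with a median of −0.13. FKBP4, a prolyl isomerase bound to HSP90, changed by −0.38 ± 0.06 (adjusted p = 0.000215), and CHORDC1, an HSP90 cofactor, by −0.38 ± 0.09 (adjusted p = 0.00351). SERPINH1, the collagen chaperone, was the one that rose, by 0.23 ± 0.08 (adjusted p = 0.0388).

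Of 22 genes listed as cofactors of HSP70 and HSP90, 7 fell and 1 rose after 6 Gy at 24 h, with a median of −0.14. The 1 called with the fold limit was HSPBAP1, at −0.67 ± 0.15 (adjusted p = 0.00316). Its name refers to HSPB1, a small heat shock protein, and not to HSP70 or HSP90. PPP5C, a phosphatase that binds HSP90, was at −0.37 ± 0.07 (adjusted p = 0.000849) and PTGES3, the HSP90 cochaperone p23, at −0.34 ± 0.07 (adjusted p = 0.00137). Of 14 genes of the cytosolic chaperonin and of prefoldin, which fold actin and tubulin, 5 fell, with a median of −0.14, among them CCT5 (−0.25 ± 0.07, adjusted p = 0.00867), CCT2 (−0.28 ± 0.08, adjusted p = 0.0132) and CCT6A (−0.24 ± 0.07, adjusted p = 0.018). Of 10 mitochondrial chaperones and proteases 1 fell, the mitochondrial HSP90 TRAP1 (−0.33 ± 0.07, adjusted p = 0.00265). These counts stand beside 11.5% lower and 12.1% higher among all genes, and none of the lists was tested as a list.

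Of the 15 folding genes of the endoplasmic reticulum, 3 rose and 1 fell, with a median of −0.02. HSP90B1, the HSP90 of that compartment, rose by 0.40 ± 0.08 (adjusted p = 0.00156). PDIA4, a disulfide isomerase, rose by 0.31 ± 0.07 (adjusted p = 0.00382), and HSPA5, the HSP70 of the endoplasmic reticulum, was at 0.13 ± 0.07 (adjusted p = 0.216). DNAJB9, a J protein that works with HSPA5, was called lower, at −0.67 ± 0.11 (adjusted p = 0.000186).

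**Figure D3:**
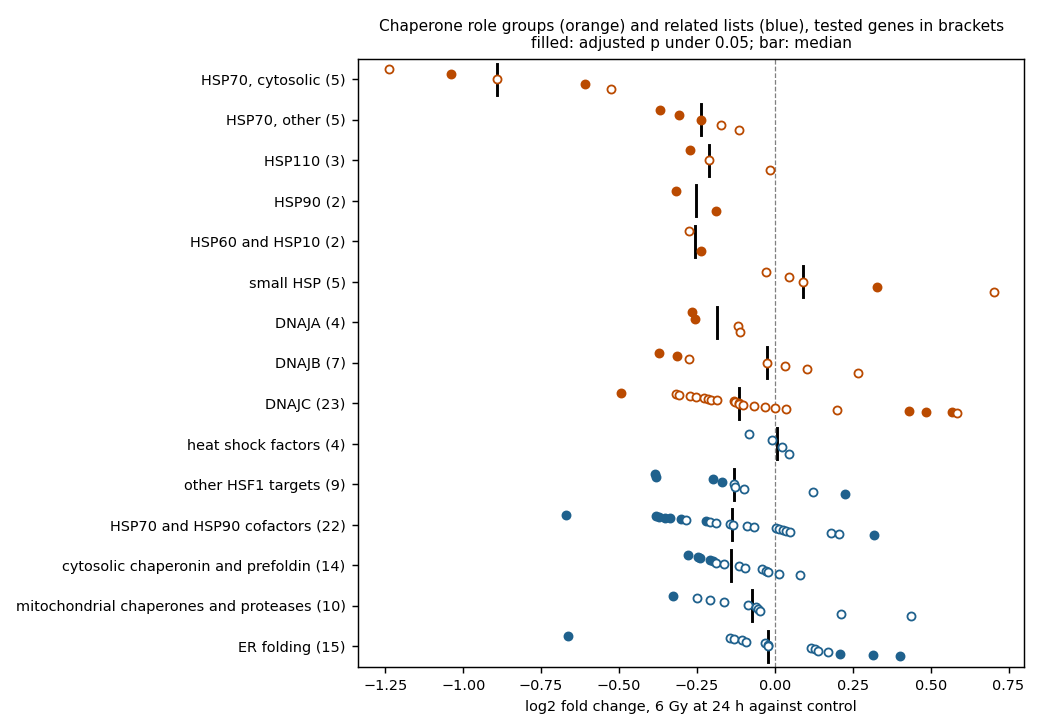
Log2 fold change after 6 Gy at 24 h against the control (x axis) of the tested genes in each chaperone role group (orange) and in 6 related lists (blue), one point per gene, with the median as a bar; filled points have an adjusted p under 0.05. All 5 cytosolic HSP70 genes lie below 0, while the small heat shock proteins and the endoplasmic reticulum list have points on both sides.

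The heat shock element letters can be set beside these changes, as a description only. After 6 Gy at 24 h, 5 of the 7 tested members with a 3-unit match fell (71.4%), namely HSPA8, HSP90AA1, HSP90AB1, HSPD1 and DNAJA1, and 8 of the 43 without one (18.6%). HSPA6 and DNAJB6 were the others with a match, at −0.89 and 0.10, and did not pass. HSP90AB1 and DNAJA1 did not pass with library totals or upper quartile scaling. For HSP90AA1, HSP90AB1, HSPD1 and DNAJA1 passing depended on single libraries, as given above. In CPM per kilobase in the controls HSP90AB1, HSPA8, HSP90AA1, HSPD1 and DNAJA1 ranked 1, 2, 3, 5 and 7 among the members. The part of abundance in these shares was not tested. With at least a 2-unit match 9 of 19 fell (47.4%), and without one 4 of 31 (12.9%). Outside the chaperone genes, 7 of 40 tested genes with a 3-unit match fell (17.5%), against 12.0% of those without, and with a 2-unit match it was 12.3%, against 12.0%. The 2-unit match of HSPA1B begins 105 bases before the start, and the 3-unit matches of HSPA8 begin 230 and 55 bases before it.

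**Figure D4:**
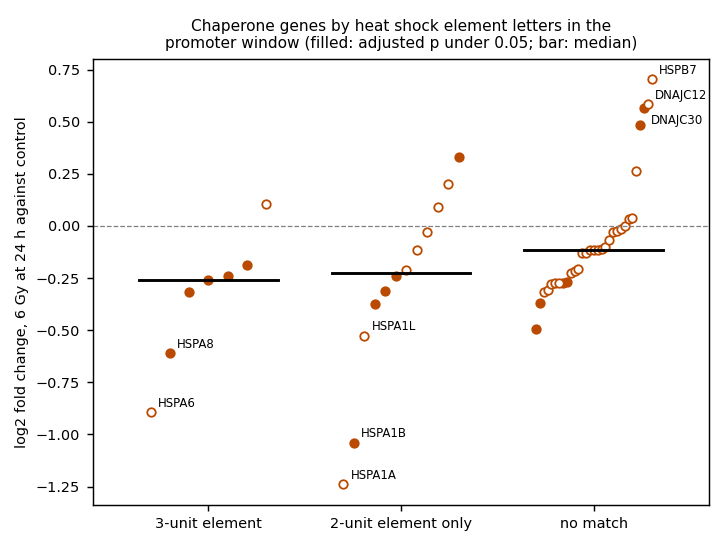
Log2 fold change after 6 Gy at 24 h against the control (y axis) of the 50 tested members with a promoter window, by the element letters found in it (x axis), with the median as a bar; filled points have an adjusted p under 0.05. Of the 7 genes with a 3-unit match 6 lie below 0, and of the genes that rose HSPB1 has a 2-unit match, DNAJC30 and DNAJC4 have no match and DNAJC22 has no window.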

How the data were processed

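RNA-seq read counts of 15 U251 libraries were used, from a control and 4 irradiated groups that the methods describe as biological replicates. The authors deposited whole-number counts for each gene, made with TopHat and HTSeq on hg19. Their versions, the treatment of reads that map to several places and the use of strand were not found in the labels or methods. A second deposited table, which holds the authors' fold changes, p-values, calls and a signal for each library, was not used. Totals ran from 8691338 to 11719631 counts. Only 13 libraries entered the main analysis because the study's own expression table lists those 13: control III and 1 Gy 6 h II were left out, and no reason was found in the sources. All 15 were analysed as an alternative. The control carries the time label 0 h, but was harvested with the 24 h groups.

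Genes were filtered with filterByExpr (minimum count 10, minimum total 15, large group size 10, proportion 0.7), scaled by TMM and tested with edgeR's quasi-likelihood test (edgeR 4.0.16, limma 3.58.1, R 4.3.3) in 1 fit over 5 groups with 9 comparisons. P-values were adjusted by the Benjamini-Hochberg method over all 12719 tested genes. Calls needed an adjusted p under 0.05 together with a log2 fold change beyond 0.5 in either direction, the study's rule, and "passed", "rose" and "fell" refer to the adjusted p alone. The fit had 8 residual and 13.5 prior degrees of freedom. CPM were computed with the TMM factors, and differences of low counts are limited by counting error. The steps were tested on simulated counts.

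Alternatives were other scalings, filters, DESeq2 1.42.0, a replicate block, only the groups compared, all 15 libraries (with and without the block) and leaving out each library. All 15 libraries with the block was chosen after seeing the data. Full statistics were given for members called in any comparison and for 12 genes listed as heat-inducible. They were also given for up to 8 more members with the lowest adjusted p in each comparison with the control. Genes of related lists were named where called or among the 3 lowest adjusted p of the list. HSPA5, SERPINH1, HSF1, the markers and the members named beyond this rule were added with their values in view. Some genes of these lists are not reported here. The members and lists themselves were chosen with earlier results of these data known. Promoter windows came from RefSeq (GRCh38.p14), and repeated 50-base stretches were counted on GRCh37. Figures were drawn with matplotlib 3.10.9 under Python 3.11.15, with numpy 2.4.6 and pandas 2.3.3.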

Additional observations from a re-analysis of the deposited data

Results flagged for a closer look

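HSPA8, the constitutive cytosolic HSP70, was the only one of the 56 tested chaperone genes whose change between 6 h and 24 h differed between the doses by a test of the difference itself. The change after 6 Gy minus the change after 1 Gy was −0.35 on the log2 scale (SE 0.07, adjusted p = 0.0306 in edgeR's quasi-likelihood test, Benjamini-Hochberg over all tested genes). All 3 libraries after 6 Gy lay below those after 1 Gy at both times. At 24 h the ranges were 1809.9 to 1929.5 CPM after 6 Gy and 2454 to 2541 CPM after 1 Gy, and at 6 h they were 2757 to 2894 CPM after 6 Gy and 2897 to 3019 CPM after 1 Gy. With all 15 libraries the adjusted p was 0.0859, over the 21 alternatives it ran up to 0.202, and 11 of them passed.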

How the results depend on the processing

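The 63 changes that passed were recomputed under each alternative, and 0 reversed. The replicate block, size factors of the DESeq2 kind and a filter of 1 CPM in 2 libraries kept all 63, while DESeq2 lost 7, all 15 libraries 6, library totals 5, upper quartile scaling 5 and only the groups compared 8. Leaving out 1 library at a time gave 240 results that still passed and 110 that did not. The labels do not say what a replicate number marks. A correlation of deviations over 0.1 was found in 15 of 30 same-numbered pairs of libraries (median 0.10, range −0.15 to 0.37) and in 4 of 60 pairs with different numbers (median −0.05), and 12 of 15 libraries correlated best with their own number. By these measures same-numbered libraries were more alike than others, though not every such pair passed 0.1. The block was kept as an alternative, so the main counts do not allow for an effect shared by libraries of a number. With the replicate block, 6 members were called after 6 Gy at 24 h, against 3 without it. That count was 5 with library totals, 5 with upper quartile scaling and 5 without a filter, and 4 to 6 with a library left out. Without a minimum fold the counts were 4 after 1 Gy at 24 h (2 with it, and 0 to 2 with a library left out, the 0 being without control II), 18 after 6 Gy at 24 h and 4 between the doses at 24 h. This last count was 0 with a minimum fold, 1 without a filter, and 0 to 1 with a library left out. Between 24 h and 6 h they were 11 after 1 Gy (3 with it, 2 to 3 with a library left out) and 25 after 6 Gy (6 with it, 5 to 7 with a library left out), and 1 for the interaction (0 with it and 0 with any library left out). At an adjusted p under 0.05 with no minimum fold, the replicate block gave 10 lower and 3 higher after 1 Gy at 24 h (9.5% and 9.76% of all genes), 19 and 6 after 6 Gy at 24 h (16.2% and 15%), 11 lower between the doses at 24 h (6.75%), and 16 lower and 3 higher between 24 h and 6 h after 1 Gy (11.2% and 11.9%). With the block and all 15 libraries these were 10 and 2, 19 and 6, 8 lower, and 16 and 3. After 1 Gy at 24 h there were 6 lower and 2 higher without a filter and 6 lower and 1 higher with only the groups compared. With a minimum fold the counts of 0 at 6 h stayed at 0. With none, 1 member was lower after 6 Gy at 6 h with DESeq2, without a filter, with only the groups compared and with the block, 1 was lower and 1 higher with the block and all 15 libraries, and 1 was lower between the doses at 6 h with the block. The cause of these shifts was not tested. Depth limits the genes of few counts (HSPA1A, HSPA6, HSPA1L and the 10 untested genes), and the controls of the main analysis number 2.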

Other observations

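The 12 genes listed as heat-inducible include HSPA8, the constitutive cytosolic HSP70, and HSP90AB1, the less heat-responsive cytosolic HSP90. Of the 12, 1 was higher and 8 were lower after 6 Gy at 24 h, at an adjusted p under 0.05 (edgeR's quasi-likelihood test). Among all tested genes 12.1% were higher and 11.5% lower. The median log2 fold change of the 12 was −0.30, beside −0.00 over all tested genes. HSP90AA1 had 86.3 and 86.7 counts per 100 counts of HSP90AB1 in the 2 controls of the main analysis, 81.4, 82.8 and 77.0 after 1 Gy and 76.0, 82.4 and 78.6 after 6 Gy at 24 h. All 6 irradiated libraries were below both controls, and the ratio was not tested. HSPA1A took between 0.661% and 4.96% of the counts of HSPA1A and HSPA1B together over the 15 libraries. The promoters of HSPA1A and HSPA1B each hold a single 2-unit match, at 106 and 105 bases before the start.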
